A study of Mus musculus with 2 samples.

Results

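The troponin genes are the 8 mouse genes that encode troponin C, troponin I and troponin T, together with Tnni3k, which encodes a kinase that binds cardiac troponin I and is no subunit of the complex. They were chosen by gene name from the annotated genes of the transcript tables, with every class of transcript model counted. Of the 9 genes, 7 had reads in at least 1 of the 2 libraries, out of 14534 annotated genes with reads. Library 1 held 89 transcript models of these genes with 3184 reads, out of 56790 models and 454069 reads in all, and library 2 held 135 models with 5049 reads, out of 69026 models and 661958 reads. The series measured total RNA from the hearts of male B6CASTF1/J mice at 2 months of age, a first-generation cross between the B6 and CAST strains, with 2 µg of RNA per library and long-read sequencing, in which 1 read stands for 1 cDNA molecule. There was 1 group of 2 libraries, no treatment and no second genotype, so the comparisons lie among the genes, among their transcript forms and between the 2 libraries. The labels list 2 biological replicates, with separate biosamples from animals of different numbers, but give both the same donor and the same library description. A p-value that compares them therefore asks only whether these 2 samples differ beyond counting error, and such a difference may be technical. Reads of the 2 parental alleles were not separated.

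Troponin is the calcium switch of striated muscle. Troponin C binds calcium, troponin I holds the thin filament off until calcium is bound, and troponin T ties the complex to tropomyosin. Each subunit has tissue forms: Tnnc1 serves heart and slow skeletal muscle, and Tnnc2 serves fast muscle; Tnni3 is the adult cardiac form of troponin I, Tnni1 the slow skeletal and foetal cardiac form and Tnni2 the fast form; Tnnt2 is the cardiac form of troponin T, Tnnt1 the slow form and Tnnt3 the fast form. Troponin T genes are also known for very short exons that are spliced in or out during development.

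The sequences that matter most here are those short exons and the places where the transcript models join the exons around them, because no model held any of them exactly. All lie on mm10, and their letters come from the GENCODE M21 transcripts. They are printed along the strand of the gene. Exons are numbered from the 5′ end over the coding transcripts used as the reference for each gene. The annotated short exon 2 of Tnni3 lies at chr7:4522070-4522082 on the minus strand, in coding sequence just after the start codon. The first line below shows it in capitals between the ends of exons 1 and 3. The other lines show the 4 most frequent forms of the models, with the bases held between exons 1 and 3 in capitals.
Tnni3 annotated: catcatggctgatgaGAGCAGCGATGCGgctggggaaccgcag
Tnni3 form 1: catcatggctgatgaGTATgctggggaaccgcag
Tnni3 form 2: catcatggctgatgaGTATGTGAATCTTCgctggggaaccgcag
Tnni3 form 3: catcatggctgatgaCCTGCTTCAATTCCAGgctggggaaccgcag
Tnni3 form 4: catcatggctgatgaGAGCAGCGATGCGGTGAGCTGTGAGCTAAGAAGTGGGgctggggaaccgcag
The extra bases of forms 1 and 2 are the start of intron 1, those of form 3 are the end of intron 2, and form 4 holds all of exon 2 and the intron bases that follow it. These letters are the reference at the coordinates of the models, and the bases of the reads themselves were not used here.

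Tnnt2, on the plus strand of chromosome 1, has 4 short variable exons that matter for its forms. Exon 4 (chr1:135841901-135841911), exon 5 (chr1:135842015-135842026) and exon 6 (chr1:135843785-135843814) are neighbours near the 5′ end, and exon 6 is known as the exon of the foetal heart. Exon 14 (chr1:135850379-135850387) lies towards the 3′ end. Below, each is in capitals, and exon 14 is shown again between its neighbours, followed by the 2 most frequent joins in the models.
Tnnt2 exon 4: GGAACAGGAAG
Tnnt2 exon 5: AAGCTGTGGAAG
Tnnt2 exon 6: AGGAAGACTGGAGTGAAGAAGAGGAGGACG
Tnnt2 exon 14 annotated: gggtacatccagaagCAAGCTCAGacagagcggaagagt
Tnnt2 exon 14 form 1: gggtacatccagaagacagagcggaagagt
Tnnt2 exon 14 form 2: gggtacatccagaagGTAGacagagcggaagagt
In form 2 the 4 extra bases are the start of intron 13.

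Levels are given in CPM, reads of a gene per 1000000 reads of annotated nuclear genes, of which library 1 had 430251 and library 2 had 629896. A read is counted once whatever its length, so CPM was not divided by gene length. The troponin genes together took 0.740% of these reads in library 1 and 0.802% in library 2.

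Troponin C was by far the most read subunit. Tnnc1 (ENSMUSG00000091898.8, chr14:31208312-31211729, plus strand) had 2707 reads in library 1 and 4288 in library 2, or 6292 and 6807 CPM. Its mean was 6550 ± 365 CPM (SD, n = 2), which ranked it 12 among all annotated genes by summed reads. Tnnc2, the fast form on chromosome 2, had 1 read in library 1 and 0 in library 2, where a count of 0 allows up to 4.76 CPM. Tnnc1 thus made up 2707 of 2708 troponin C reads in library 1 and all 4288 in library 2.

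For troponin I, the adult cardiac gene was again nearly alone. Tnni3 (ENSMUSG00000035458.15, chr7:4518305-4524229, minus strand) had 272 and 402 reads, or 632 and 638 CPM, and its mean was 635 ± 4.25 CPM (SD, n = 2). Tnni1, the foetal and slow form on chromosome 1, had 0 reads in both libraries, which allows up to 6.97 CPM in library 1 and 4.76 CPM in library 2. Tnni2, the fast form on chromosome 7, had 0 reads in library 1 and 2 in library 2. Tnni3 was 100% of 272 troponin I reads in library 1 (95% Clopper-Pearson interval 98.7 to 100%) and 99.5% of 404 in library 2 (98.2 to 99.9%). Intervals here and below cover counting error only.

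Troponin T showed a second form. Tnnt2 (ENSMUSG00000026414.13, chr1:135836354-135852260, plus strand) had 148 and 267 reads, or 344 and 424 CPM, with a mean of 384 ± 56.5 CPM (SD, n = 2). Tnnt1 (ENSMUSG00000064179.13, chr7:4504570-4516382, minus strand) had 22 and 16 reads, or 51.1 and 25.4 CPM, with a mean of 38.3 ± 18.2 CPM (SD, n = 2). Tnnt3, the fast form on chromosome 7, had no read in either library. Tnnt2 made up 87.1% of 170 troponin T reads in library 1 (81.1 to 91.7%) and 94.3% of 283 in library 2 (91.0 to 96.7%). The Tnnt1 reads came mostly from 1 short model at the 3′ end of the gene, described below. Among models of at least 5 exons, a limit chosen after seeing the data, Tnnt2 made up 91 of 95 reads in library 1 and 186 of 187 in library 2.

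Tnni3k (ENSMUSG00000040086.13, chr3:154786291-155055407, minus strand), the kinase, had 34 and 74 reads, or 79.0 and 117 CPM, with a mean of 98.3 ± 27.2 CPM (SD, n = 2). Its level thus lay between those of Tnnt2 and Tnnt1, and the intervals of Tnni3k and Tnnt1 in library 1 overlapped (54.7 to 110 and 32.0 to 77.4 CPM).

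**Figure D1:**
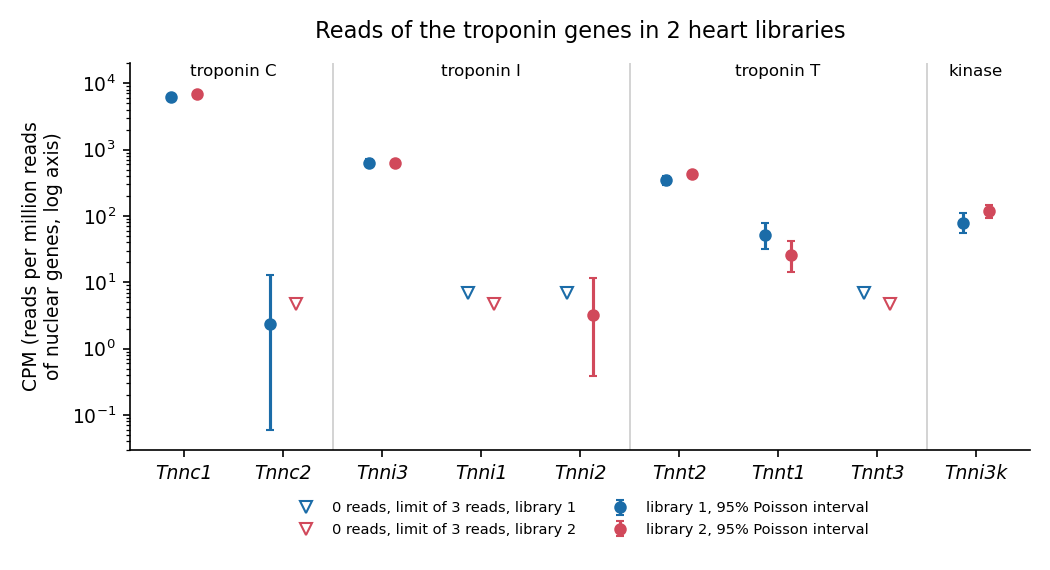
Level of each of the 9 genes in CPM on a log axis, grouped by subunit; filled circles are the 2 libraries with 95% Poisson intervals, and open triangles mark 0 reads, drawn at the limit of 3 reads. Tnnc1 stands at 6292 and 6807 CPM, far above Tnni3 and Tnnt2, and the fast forms and Tnni1 lie at or below the limit or at 1 to 2 reads.

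In protein the 3 cardiac subunits sit together in equal numbers, but their reads were unequal in both libraries. There were 9.95 Tnnc1 reads for each Tnni3 read in library 1 and 10.7 in library 2. For each Tnnt2 read there were 18.3 and 16.1 Tnnc1 reads. The order Tnnc1, Tnni3, Tnnt2 was the same in both libraries, and the intervals of the 3 genes did not overlap within either library (in library 1, 6057 to 6533, 559 to 712 and 291 to 404 CPM). The same order held for the share of reads that ran from the first to the last exon, given next, and how far that share moves the read counts was not tested.

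Tnnc1 reads were nearly all complete, Tnni3 reads about evenly split and Tnnt2 reads mostly 3′ pieces. Of Tnnc1 reads, 98.9% in library 1 (98.4 to 99.3%) and 99.0% in library 2 (98.7 to 99.3%) belonged to models that reached both the first and the last of its 6 exons. For Tnni3, with 8 exons, the shares were 50.7% (44.6 to 56.8%) and 51.2% (46.2 to 56.2%). For Tnnt2, with 18 exons in the reference used here, they were 10.1% (5.78 to 16.2%) and 10.9% (7.40 to 15.2%). In each gene the intervals of the 2 libraries overlapped, and those of the 3 genes did not. The long Tnni3k transcript, with 25 exons, was read from its first to its last exon in 29 of 34 reads (85.3%) and 57 of 74 (77.0%). How these shares depend on the number or length of exons was not tested. Models that held the last exon alone took 25.7% and 21.9% of Tnni3 reads, 19.6% and 10.1% of Tnnt2 reads, and 0.369% and 0.420% of Tnnc1 reads.

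**Figure D2:**
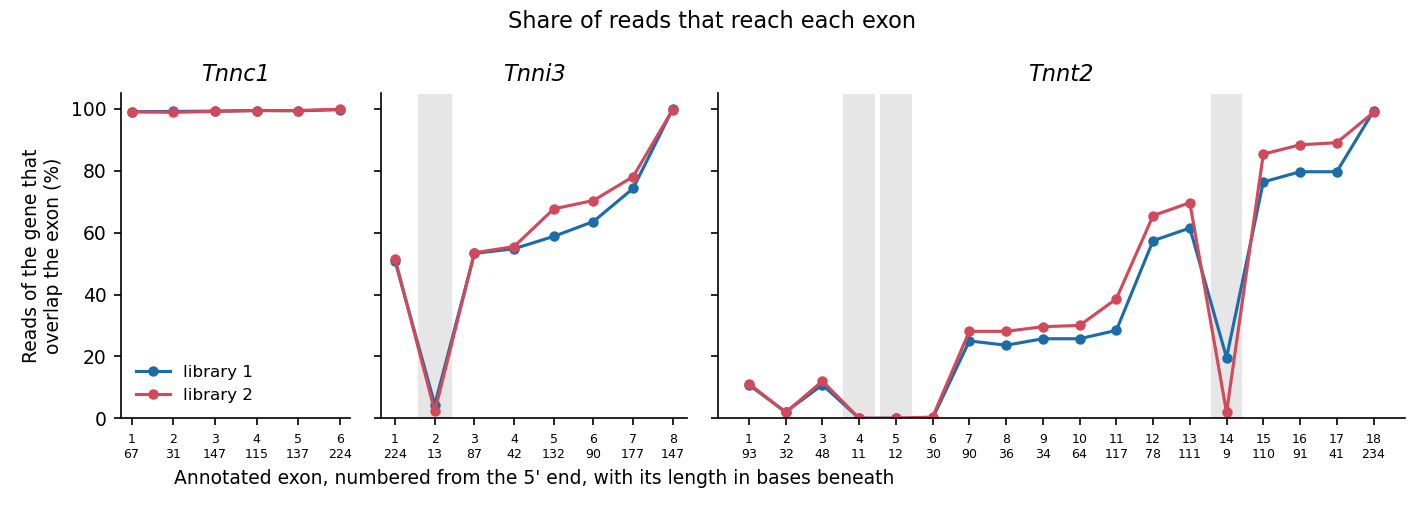
Share of each gene's reads (%) that overlap each annotated exon, numbered from the 5′ end with the exon length beneath; lines are the 2 libraries and grey bands mark exons of 15 bases or fewer. Tnnc1 stays at about 99% throughout, and Tnni3 falls from 100% at exon 8 to 50.7% and 51.5% at exon 1. Tnnt2 falls in steps to 10.8% and 11.2%. There are drops at the grey bands, and in Tnnt2 also at exons 2 and 6, of 32 and 30 bases.

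The losses along Tnnt2 came in steps. In library 1, 79.7% of Tnnt2 reads reached exon 16, 61.5% reached exon 13, 28.4% reached exon 11 and 10.8% reached exon 1. In library 2 these shares were 88.4%, 69.7%, 38.6% and 11.2%. Models that began in exon 12 held 29.1% and 27.3% of the reads, the most frequent start in both libraries. Starts are those recorded for a model, and reads that share an intron chain share 1 model. The 4-exon chain that begins ahead of exon 16 shows this: its 22 reads in library 1 carry a model start at exon 14, and its 41 reads in library 2 a start at exon 15.

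Transcript models were sorted by the authors' software into classes against the annotation. Known models match an annotated transcript. Incomplete splice matches (ISM) hold a stretch of one. By definition, NIC models combine annotated splice sites in a new way, NNC models use a splice site that is not annotated, and genomic models have no spliced match. The names are given as deposited, and the NIC name of a Tnni3 model did not keep to this definition, as described below. Names of Tnnt2 chains also changed between the libraries. A 13-exon chain of 1159 bases (1 and 7 reads) was NIC in library 1 and NNC in library 2. An 11-exon chain of 1003 bases (2 and 3 reads) was NIC in library 1 and ISM in library 2. Over the 1747 genes with at least 100 reads, the median share of reads in known models was 87.1%, and 35 genes (2.00%) had none.

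Of the cardiac subunits, Tnnc1 alone was read mainly as known transcripts. Known models held 97.3% of Tnnc1 reads in library 1 (96.7 to 97.9%) and 97.2% in library 2 (96.6 to 97.6%). For Tnni3 the shares were 15.4% (11.4 to 20.3%) and 10.4% (7.63 to 13.9%). None of the 148 and 267 Tnnt2 reads was in a known model, although 15 Tnnt2 transcripts are annotated. The exact intervals of these 0 counts reach 2.46% and 1.37%. Tnnt1 also had none in 22 and 16 reads, and Tnni3k had 76.5% (58.8 to 89.3%) and 60.8% (48.8 to 72.0%).

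**Figure D3:**
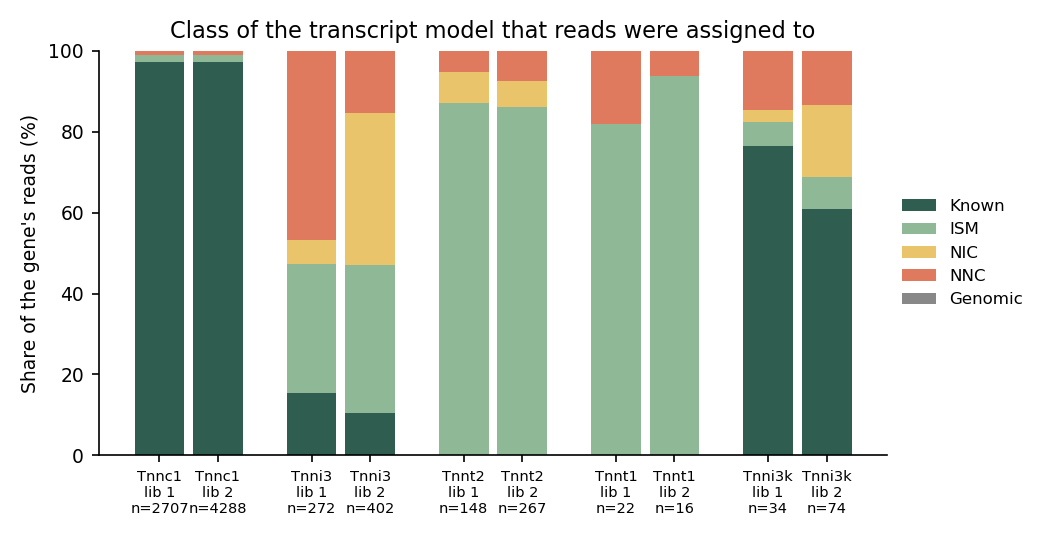
Share of each gene's reads (%) in the 5 classes of transcript model, as stacked bars for each library (lib) with the number of reads (n) beneath. Tnnc1 is nearly all known, Tnnt2 and Tnnt1 are mostly incomplete splice matches, and in Tnni3 the NIC and NNC shares change places between the libraries.

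The single coding transcript of Tnnc1, Tnnc1-202 (721 bases, 6 exons), took 2615 and 4136 reads, or 96.6% and 96.5% of the gene. Tnnc1-203, annotated as a target of nonsense-mediated decay, took 20 and 30 reads, or 0.739% and 0.700%. It differs at exon 5, where splicing skips the first 26 bases, shown in capitals with the 4 bases that follow (chr14:31211280-31211309).
Tnnc1 exon 5 start: AAACGCTGATGGCTACATTGACTTAGatga
The other Tnnc1 forms were rare. A 4-exon form that keeps introns 1 and 2 in its first exon had 17 and 22 reads, and a 5-exon form that keeps intron 1 had 7 and 10. Intron 1 was kept in 0.822% of informative reads in library 1 and 0.780% in library 2, and introns 3 to 5 in at most 0.212%. Use of the 2 known transcripts did not pass the test between the libraries (Fisher's exact test, Benjamini-Hochberg adjusted p = 1.00, over 550 genes tested, of which 0.182% passed).

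No Tnni3 read matched a coding transcript. All 42 known reads of library 1 and all 42 of library 2 were in Tnni3-204 (29 and 31 reads) and Tnni3-202 (13 and 11 reads), which are annotated as retained-intron transcripts, and both begin near the 3′ end of the gene. The most frequent Tnni3 form had 7 exons and 817 bases, with 81 reads in library 1 (29.8% of the gene) and 130 in library 2 (32.3%). It has the exons of the coding transcript Tnni3-201 except exon 2, in the join printed above as form 1. Its splice site after exon 1 is not annotated in GENCODE M21, yet the same intron chain was named NNC in library 1 and NIC in library 2. As a result the NNC share of Tnni3 reads was 46.7% in library 1 and 15.4% in library 2, and the NIC share 5.88% and 37.6%, while both classes together came to 52.6% and 53.0%. The next forms were the last exon alone (70 and 88 reads), a 4-exon 3′ piece (11 and 48 reads), and the 7-exon form with join 2 (16 and 26 reads). By intron chain over known models and incomplete splice matches, a wider set, the use of 4 Tnni3 chains did not pass (permuted chi-square test, p = 0.00172, adjusted p = 0.140 over 816 genes, of which 0.735% passed; adjusted p = 1.00 for Tnnc1 and for Tnnt2), and the chain whose share changed most was the 4-exon piece, at 11 and 48 reads. The known-transcript test itself gave an adjusted p of 1.00 for Tnni3 (Fisher's exact test).

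Exon 2 of Tnni3, 13 bases long, was held exactly by 0 of the 138 reads over exons 1 and 3 in library 1 and by 0 of 206 in library 2, which allows up to 2.17% and 1.46%. It belongs to 3 of the 4 coding transcripts of the gene. Form 1, with 4 extra bases after exon 1, had 81 of the 138 reads (58.7%) and 135 of the 206 (65.5%). Form 2, with 14 extra bases, had 11.6% and 13.1%. Form 3, with 16 extra bases before exon 3, had 8.70% and 8.25%. Form 4, a 37-base exon that contains exon 2, had 7.97% and 3.88%. The 2 libraries thus ranked the first 3 forms alike. Exons 1 and 3 were joined with nothing between them in 3 reads of library 1 and 0 of library 2. Exon 2 leaves a remainder of 1 base when its length is divided by 3, and so did the bases held by 77.5% of the spanning reads in library 1 and 80.6% in library 2.

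**Figure D4:**
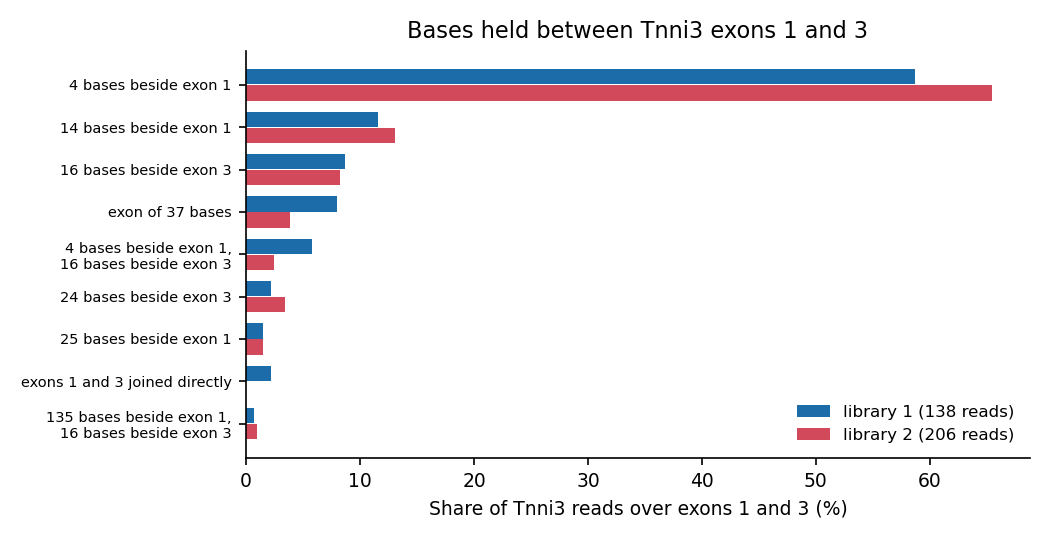
Share (%) of Tnni3 reads over exons 1 and 3 by the bases held between them, for forms with at least 3 reads, with 1 bar for each library. The form with 4 bases beside exon 1 leads in both libraries at 58.7% and 65.5%, and no form holds the annotated 13-base exon 2.

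The short exons of Tnnt2 were missing in the same way. Exon 4 (11 bases, in 9 of 12 coding transcripts), exon 5 (12 bases, in 5 of 12) and exon 6 (30 bases, in 4 of 12) were each held exactly by 0 of the 15 reads of library 1 and 0 of the 31 reads of library 2 that covered exons 3 and 7. With so few reads a count of 0 allows up to 20.0% and 9.68%. In 13 of the 15 reads and 25 of the 31, exon 3 ran on by 4 bases and was joined to exon 7. Here the 4 extra bases leave a remainder of 1, and exons 4 and 5 together, like all 3 exons, leave one of 2, so the remainders did not match at this place.

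Exon 14 of Tnnt2, 9 bases and in 7 of 12 coding transcripts, was held exactly by 0 of 91 and 0 of 186 reads, which allows up to 3.30% and 1.61%. Exons 13 and 15 were joined directly in 76 reads (83.5%) and 149 reads (80.1%), and with 4 extra bases of intron 13 in 7 (7.69%) and 29 (15.6%). The remainder of exon 14 is 0, and so was that of the bases held by 86.8% and 81.7% of the spanning reads. In Tnnt1, exon 3 (14 bases, in 10 of 10 coding transcripts) was held by 0 of the 3 reads and of the 1 read that covered it.

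Exact hits on exons this short were missing across the libraries, not in troponin alone. The comparison, added after seeing the data, took annotated coding exons that every coding transcript of the gene treats alike, with at least 10 spanning reads in a library. Tnni3 exon 2 and the variable exons of Tnnt2 do not meet that rule, so none of them is counted here. Of exons up to 15 bases, 11 could be measured in library 1 and 10 in library 2, and 0 of 541 and 0 of 783 spanning reads held them exactly. The shortest exon of this kind that any read held exactly had 14 bases, with fewer than 10 spanning reads in each library. Nearly all of those reads, 539 and 782, lacked the exon. They include exons of Mybpc3 (3 bases), Phb2 (6), Capn2 (12) and Idh3g (12), named after their values were seen. Of exons of 16 to 30 bases, 5.97% of 201 and 4.52% of 221 had no exact read, and of 31 to 50 bases 0.160% of 1252 and 0.0689% of 1452. Exact hits were also fewer just above 15 bases, over both libraries and exons with at least 20 spanning reads. The share of spanning reads was 0% at 16 bases, 27.5% at 17, 24.5% at 19, 34.8% at 20 and 60.2% at 21. It was 91.2% at 18 bases and at least 91.7% at each length from 22 to 30. Among genes with at least 100 reads, the 5 that hold such an exon of up to 15 bases had a median of 0.382% of reads in known models, against 87.1% for the 1742 others. This contrast restates the missing exact hits and is no separate support. No coding transcript of these genes runs over the exon without holding it, so a read that spans the exon and lacks it cannot match one. The absence of exon 2 of Tnni3 and of exons 4, 5 and 14 of Tnnt2 from the models therefore cannot be told apart from the absence of the other exons of up to 15 bases that could be measured, and the data do not measure how often these exons were spliced in.

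**Figure D5:**
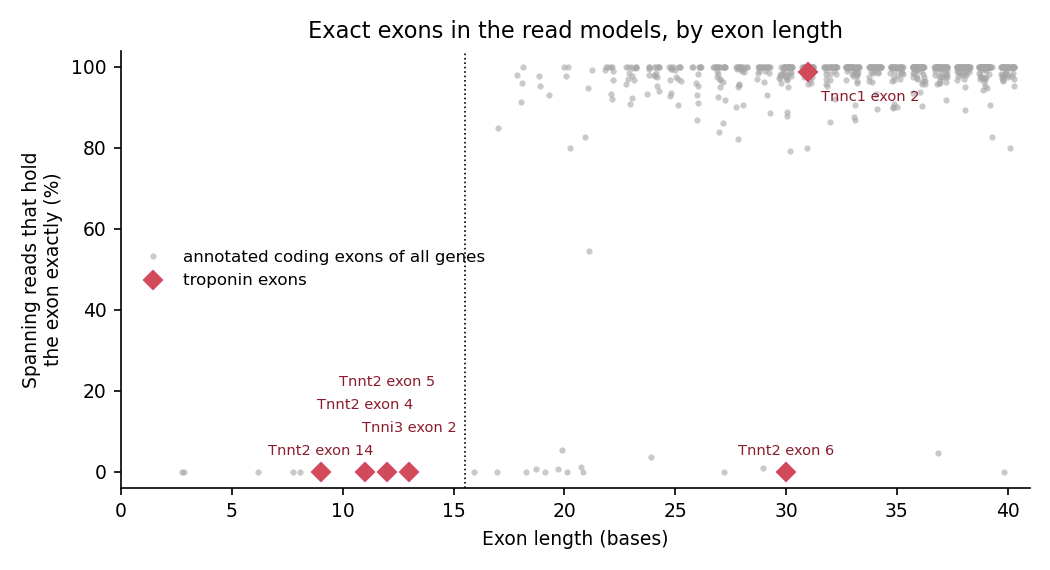
Share (%) of spanning reads, over both libraries, that hold an exon exactly, against exon length in bases, for annotated coding exons with at least 20 spanning reads; grey points are exons that all coding transcripts treat alike, diamonds are troponin exons (those of Tnnt2 are variable ones), and the dotted line lies just above 15 bases. All points left of the line are at 0, Tnnc1 exon 2 is near 99%, and Tnnt2 exon 6 is at 0 among exons of 30 bases that are mostly near 100%.

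Exon 6 of Tnnt2, at 30 bases, is longer than exons 4, 5 and 14. Of the 44 exons of 30 bases measured over both libraries, 43 were held exactly by at least 1 read, and 97.5% of 3421 spanning reads held them. Those are exons that every coding transcript treats alike, while exon 6 is in 4 of 12 coding transcripts and lies beside exons 4 and 5. The 0 of 15 and 0 of 31 reads for exon 6 describe its absence from the models at this depth. Whether the models would have held it, had it been spliced in, was not tested. In library 2, 1 read began in a longer form of that exon, so the exon was not without reads altogether. Exon 2 of Tnnc1, the shortest internal exon of that gene at 31 bases (chr14:31209803-31209833), was held by 2652 of 2657 informative reads in library 1 (99.8%) and 4194 of 4209 in library 2 (99.6%).

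Other annotated internal troponin exons that at least 3 reads held and at least 3 skipped were mostly held, except Tnnt2 exon 2. Tnnt2 exon 2 (32 bases, chr1:135838148-135838179, near the 5′ end) was held in 1 of 14 reads in library 1 and 5 of 30 in library 2, or 7.14% (0.181 to 33.9%) and 16.7% (5.64 to 34.7%), so most reads skipped it. Tnnt2 exon 8 (36 bases) was held in 94.3% and 98.6%. In Tnni3k, exon 23 (170 bases) was held in 29 of 30 reads in library 1 and 50 of 60 in library 2, or 96.7% (82.8 to 99.9%) and 83.3% (71.5 to 91.7%), exon 12 (87 bases) in 96.8% and 92.6%, and exon 22 (60 bases) in 30 of 30 and 57 of 60 reads. An unannotated 55-base exon of Tnni3k was held by 0 of 30 and 4 of 61 reads. Of the 4 troponin-gene exons with enough reads for Fisher's exact test between the libraries (Tnni3k exons 12 and 23, Tnnc1 exon 2 and the 37-base Tnni3 exon), none passed, and none had an unadjusted p under 0.05. The lowest was that of Tnni3k exon 23 (Fisher's exact test, p = 0.0919, adjusted p = 1.00). Over all 1254 exons tested, 0% passed after adjustment, and 44 had an unadjusted p under 0.05.

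Tnni3k was read mainly as its coding transcript. Tnni3k-201 (25 exons, 3034 bases) took 25 of 34 and 42 of 74 reads. The retained-intron transcript Tnni3k-203 had 1 and 3 reads. Further forms with at least 3 reads were a 24-exon form without exon 12 (1 and 3 reads), a 24-exon form without exon 23 (0 and 4) and an 18-exon form with another 3′ end (0 and 4).

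Tnnt1 came down to 1 model. A 3-exon model at the 3′ end, whose first exon runs 504 bases from intron 11 into exon 12, held 18 of 22 reads in library 1 and 15 of 16 in library 2. A 12-exon form that lacks exons 3 and 6 had 3 reads in library 1 and 0 in library 2. The recurrent Tnnt2 forms were likewise 3′ pieces: 6 exons (41 and 64 reads), 4 exons (22 and 41), the last exon alone (29 and 27) and 11 exons (13 and 31). The most frequent Tnnt2 form that began at exon 1, with 13 exons and 1123 bases, had 4 and 7 reads.

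For the 5 genes with at least 10 reads, most spliced reads lay in intron chains found in both libraries. For Tnnc1, 17 intron chains were found in both libraries, and they held 99.7% and 99.6% of its spliced reads. For Tnni3, 15 shared chains held 97.0% and 95.9%, and for Tnnt2, 15 shared chains held 87.4% and 85.4%. For Tnni3k, 4 shared chains held 82.4% and 67.1%, and for Tnnt1, 1 shared chain held 81.8% and 93.8%.

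No troponin gene passed the test between the 2 libraries. The test was an exact two-sided binomial test with Benjamini-Hochberg adjustment over 8098 genes with at least 10 reads, of which 0.692% passed and 579 had an unadjusted p under 0.05. Of the 5 troponin genes tested, 0 passed and 3 had an unadjusted p under 0.05 (Tnnc1, Tnnt1 and Tnnt2). By this exact test, the log2 ratio of library 1 over library 2 was -0.11 for Tnnc1 (adjusted p = 0.136), -0.01 for Tnni3 (adjusted p = 1.00) and -0.30 for Tnnt2 (adjusted p = 0.685). It was 1.00 for Tnnt1 (exact test, adjusted p = 0.631) and -0.56 for Tnni3k (adjusted p = 0.726), and the median over all genes tested was 0.01. The call for Tnnc1 rests on the scaling: with median-of-ratios scaling, which moves every log2 ratio by -0.02, its adjusted p was 0.0283. With ERCC scaling, which moves every log2 ratio by -0.26, Tnnc1 (-0.38) and Tnnt2 (-0.56) passed.

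The heart label held in both libraries. The 5 ventricular markers together stood at 51586 and 43841 CPM, of which Myh6, known in adult mouse atria as well, gave 36490 and 27652. The 5 atrial markers stood at 3293 and 3388 CPM. Of 13 skeletal muscle markers, 7 (Myh1, Myh2, Myh4, Ryr1, Pvalb, Mybpc1 and Cacng1) had 0 reads, and all 13 summed to 69.7 and 55.6 CPM. Markers of blood differed most: the 5 erythroid genes, Hba-a1, Hba-a2, Hbb-bs, Hbb-bt and Alas2, summed to 13799 CPM in library 1 and 3663 CPM in library 2, and all 5 passed. Without their reads in the totals, an alternative added after seeing the data, the log2 ratio of Tnnc1 was -0.10 (exact test, adjusted p = 0.315) and no troponin gene passed. The remaining markers that passed were Myh6, higher in library 1, Pln (6559 and 7258 CPM) and Col3a1 (442 and 287 CPM).

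Of the other genes of the thin filament, 1 passed the test between the libraries. Of 14 listed, 13 were tested, 0 passed as higher in library 1 and 1 as higher in library 2, and the median log2 ratio of the 13 was -0.13, against 0.01 over all genes tested. The gene that passed was Tpm1, the cardiac tropomyosin, at 9401 and 10233 CPM (exact binomial test, adjusted p = 0.00560). The next in level were Actc1, cardiac actin, at 2029 and 2304 CPM, and Acta1, skeletal actin, at 418 and 322 CPM. Tpm1 was thus read more often than Tnnc1 in both libraries. Of 14 genes listed for kinases and phosphatases of troponin I, with some of their regulatory subunits, 11 were tested and none passed, with a median of -0.08. The highest were Prkar1a (881 and 768 CPM), Prkaca (551 and 627 CPM), subunits of protein kinase A, and Ppp2ca (469 and 516 CPM), a phosphatase. Of 11 splicing factors that bind troponin T transcripts or others of muscle, all were tested and none passed, with a median of 0.08. The highest were Rbm38 (332 and 314 CPM), Mbnl2 (309 and 257 CPM) and Rbm24 (239 and 210 CPM), each below Tnnt2 in both libraries. In library 1, Rbm38 and Mbnl2 lay within the Poisson interval of Tnnt2 (291 to 404 CPM).

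Few reads of other annotated genes fell on the troponin genes. Nisch lies over Tnnc1 on the opposite strand, and 0 and 1 of its reads overlapped Tnnc1. Ube2c over Tnnc2, Dnaaf3 over Tnni3, Gm37890 over Tnni3k and Prr33 over Tnnt3 had 0 reads within those genes in both libraries.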

How the data were processed

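Long-read RNA sequencing gave 1 table of counts and 1 set of transcript models for each of the 2 heart libraries. The deposited counts are whole reads per transcript model, compared with GENCODE M21 on mm10 per the files deposited beside the tables. Unannotated models are named by TALON, per the file headers of the model files. The aligner, read correction and versions are not given in the sources used here. Nothing was pooled.

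From these counts, reads were summed per gene and divided by the reads of annotated nuclear genes to give CPM. Exons came from the models and were compared by mm10 coordinates. Between the libraries, reads per gene were tested with an exact binomial test (at least 10 summed reads), exons with Fisher's exact test (at least 20 informative reads in each library) and use of known transcripts with Fisher's exact test or a chi-square test over 100000 random tables, each Benjamini-Hochberg adjusted over all genes or exons, with a threshold of 0.05. Log2 ratios had 0.5 reads added. Intervals are exact 95% Clopper-Pearson or Poisson ones, and a count of 0 was read as allowing 3 reads, which is 6.97 CPM in library 1 and 4.76 CPM in library 2. All 9 genes are named, with every form of at least 3 reads that a result turns on. Of the other lists, the genes that passed and the 3 highest in mean CPM are named, and of the marker lists those that passed. The members and lists were chosen with earlier results of these data known. The scripts, in Python 3.11.15 with SciPy 1.17.1 and pandas 2.3.3, were tested on simulated data. Alternatives covered the classes counted, the scaling, the read minimum, the exon rule and leaving out each library. No genome sequence or protein table was used, and sequences come from the GENCODE M21 transcripts.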

Additional observations from a re-analysis of the deposited data

Results flagged for a closer look

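Signal outside the annotated genes stood out at Tnnt2. An unannotated, unspliced locus of 639 bases on the opposite strand, at chr1:135849741-135850379, had 113 reads in library 1 and 112 in library 2, or 263 and 178 CPM, above the 3 reads that a count of 0 allows. It ranked 6 among the 5549 antisense loci of library 1 and 10 among the 6398 of library 2, where the median antisense locus had 1.00 read. It lies within intron 13 of Tnnt2, and its highest coordinate is the first base of exon 14. A further antisense locus of 4165 bases near the 5′ end of Tnnt2 had 5 reads in library 1. In library 2, antisense models with the same lowest coordinate had 1 and 2 reads.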

How the results depend on the processing

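The shares of the cardiac forms of troponin C and I, the inclusion of Tnnt2 exons 2 and 8, of the Tnni3 37-base exon and of the Tnni3k 60-base and 55-base exons, and the counts of troponin genes that passed the exon and transcript tests stayed within 1 SD or at 0 under the alternatives that gave a value. Each of 2 libraries always lies within 1 SD of their mean, so leaving out a library was bound to give this outcome. With known transcripts only, the ratio of Tnnc1 to Tnni3 reads was 81.0 in place of 10.3, the log2 ratio of Tnni3 was 0.55, and inclusion of Tnnc1 exon 2 and of Tnni3k exons 23 and 12 was 100%. Known-only levels were 8422 CPM for Tnnc1 in place of 6550, 109 for Tnni3 in place of 635, and 0 for Tnnt2 and Tnnt1, so no known-only ratio to Tnnt2 or troponin T share could be given. With models of at least 5 exons, the Tnnt2 share was 97.6% in place of 90.7%. The count of troponin genes that passed was 1 with median-of-ratios scaling and 2 with ERCC scaling. Without erythroid genes in the totals, the log2 ratio of Tnni3 was 0.00, on the other side of 0. Leaving out either library leaves 1, so no test was possible, and the ratio of Tnnc1 to Tnni3 ranged from 9.95 to 10.7. No paired analysis was possible because there is 1 group. Depth limits Tnnt1 exon 3 (3 and 1 spanning reads) and Tnnt2 exons 4 to 6 (15 and 31).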
